A study of Mus musculus with 8 samples.

Results

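The NR4A orphan nuclear receptors are encoded by 3 genes, Nr4a1, Nr4a2 and Nr4a3, and all 3 were found by symbol in the deposited count table, each in 1 of its 47706 rows. All 3 passed the filter on low counts, which left 16736 genes to be tested. Their transcripts were measured by poly(A) RNA sequencing in primary calvarial osteoblasts, bone-forming cells taken from the skullcap of newborn mice. The cultures had differentiated for 7 days, were serum-starved, and then received PTH (an N-terminal peptide of parathyroid hormone) or vehicle for 24 hours, with 4 cultures in each group. The sample titles carry the prefix Con in both groups, and the labels give no genotype, strain or dose. The methods of the study do state a PTH dose for this experiment. The labels also call the differentiation adipogenic, whereas the methods of the study describe osteogenic medium. Whether the 4 cultures of a group came from separate preparations of cells is not stated, so the p-values measure the spread between these samples, which may be technical.

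Total counts per culture lay between 33605610 and 56090654, and the shallowest and deepest libraries were both PTH-treated (replicates 2 and 1). Tnfsf11, which encodes RANKL, was examined as a check of the treatment labels and had 1.42 ± 0.365 CPM (counts relative to the TMM-normalized library total, mean ± SD, n = 4) with vehicle and 128 ± 20.0 CPM with PTH. Osteoblast markers were abundant, with the summed level of 12 genes between 92900 and 105000 CPM with vehicle and between 86900 and 126000 CPM with PTH. Most of this sum came from Col1a1, Col1a2 and Sparc, with means of 44400, 35100 and 16800 CPM with vehicle. The next highest was Ibsp, with a mean of 1410 CPM with vehicle. By comparison, 8 adipocyte markers summed to between 34.1 and 63.2 CPM over all cultures. Macrophage markers were present as well: 10 genes summed to between 1070 and 1740 CPM with vehicle and between 1670 and 2140 CPM with PTH, and 2 of the 10, Lyz2 and Cd14, were upregulated (log2 fold changes 0.63 and 0.50). The CPM ranges of the 2 groups overlapped for both Lyz2 and Cd14. Of the 12 osteoblast markers, 3 were downregulated (Runx2, Sp7 and Dmp1, with log2 fold changes of -0.33, -1.78 and -1.12). These 2 counts lie near the shares over all tested genes, of which 23.3% were upregulated and 22.5% downregulated. In the other direction, 0 macrophage markers were downregulated and 0 osteoblast markers were upregulated. The median log2 fold change was 0.31 for the macrophage markers and -0.15 for the osteoblast markers, beside -0.001 for all tested genes. Chondrocyte markers summed to between 305 and 318 CPM with vehicle and between 357 and 474 CPM with PTH (5 genes), and endothelial and muscle markers (5 and 6 genes) to at most 6.97 and 9.34 CPM. Of the 4 chondrocyte markers that could be tested, 2 were upregulated and 0 downregulated. The part of other cell types in the results below was not tested, and in bulk RNA a change in the number of cells of a type cannot be told apart from a change in RNA per cell.

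NR4A proteins are nuclear receptors for which no classical hormone is needed: the pocket that holds the ligand in other receptors is filled by the protein's own side chains, and activity follows mainly from how much of the protein is made. The genes are immediate early genes, transcribed without new protein synthesis after hormones, growth factors or depolarization, in large part through cAMP, protein kinase A and the factor CREB, which binds the cAMP response element (CRE). The proteins bind DNA as monomers at the octamer AAAGGTCA (the NBRE) or as dimers, and Nr4a1 and Nr4a2 also pair with the retinoid X receptors. In osteoblasts they are known as early targets of the PTH receptor, which couples to adenylyl cyclase.

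The promoters of the members are shown because the genes moved together and because the CRE is the element through which cAMP is known to act on them. RefSeq gives 1 start for each gene on GRCm38.p6. The windows searched hold 250 bases before that start and 50 after it, and the letters below are the part of each window that lies before the start and outside every annotated exon of the gene, read on the strand of the gene. For Nr4a1 this is chr15:101266596-101266845 on the plus strand, within an intron of a longer annotated transcript, for Nr4a2 chr2:57124004-57124253 on the minus strand, and for Nr4a3 chr4:48045055-48045152 on the plus strand. Capitals mark the CRE half-site TGACG or its reverse complement CGTCA.
Nr4a1: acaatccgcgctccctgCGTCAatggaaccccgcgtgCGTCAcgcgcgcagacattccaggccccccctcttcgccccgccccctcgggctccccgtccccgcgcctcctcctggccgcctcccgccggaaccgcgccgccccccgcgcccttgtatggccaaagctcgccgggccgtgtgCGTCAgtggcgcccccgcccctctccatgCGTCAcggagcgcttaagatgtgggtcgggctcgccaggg
Nr4a2: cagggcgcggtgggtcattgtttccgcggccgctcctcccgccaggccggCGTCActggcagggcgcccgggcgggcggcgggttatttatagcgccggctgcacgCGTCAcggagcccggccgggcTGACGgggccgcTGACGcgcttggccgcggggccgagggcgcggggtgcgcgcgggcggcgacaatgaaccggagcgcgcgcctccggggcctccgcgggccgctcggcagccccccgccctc
Nr4a3: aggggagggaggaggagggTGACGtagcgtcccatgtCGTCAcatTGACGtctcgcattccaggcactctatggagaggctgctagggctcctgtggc

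Each of the 3 windows held 4 CRE half-sites. In Nr4a1 they began at positions -233, -213, -69 and -40 from the start, all on the strand opposite to the gene. In Nr4a2 they began at -200, -144, -123 and -111, and in Nr4a3 at -231, -213, -205 and -147, the last of which lies in an annotated exon and is not printed. Of 32851 promoter windows of the same length over 27025 genes, 20.8% held at least 1 half-site and 0.231% (76 windows) held at least 4. The motif contains CG, and the windows of the members were rich in G and C (72.3% in Nr4a1, 81.7% in Nr4a2 and 64.7% in Nr4a3, against a median of 52.7%). Among the 6218 windows with at least the GC content of Nr4a3, 0.563% held 4 or more half-sites. The palindrome TGACGTCA, which consists of a half-site on each strand, was found in 1.79% of windows and in none of the 3, and the NBRE was found in 1.51% of windows and in none of the 3. Among the 43 listed nuclear receptor genes with a window, no gene other than the 3 NR4A genes had 4 half-sites, and Nr2e1 had 3. Nr2e1 had 0 counts in every culture and was not tested. The vitamin D receptor gene Vdr had 0 half-sites, and its log2 fold change was 5.60, above those of Nr4a1 and Nr4a2. Of the 24 other listed immediate early genes with a window, 17 (70.8%) had at least 1 half-site in any window. The share was 23.0% over all 27025 genes with a window, tested or not. All genes of this list passed the filter on low counts. Among the 11296 tested genes with a window, the like set for this list, 7463 had no half-site in any window. The median GC content over the 11296 was 61.3%, with 1 window per gene, that with the most half-sites. Over all windows it was 52.7%. The part of expression and GC content in this contrast was not tested.

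**Figure D1:**
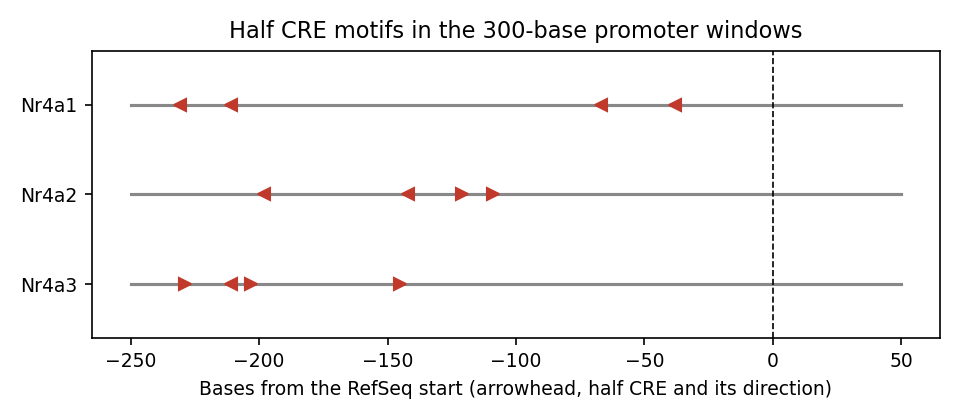
Positions of CRE half-sites in the promoter windows of the 3 NR4A genes, in bases from the RefSeq start (dashed line); each arrowhead is 1 half-site and points right for the strand of the gene and left for the opposite strand. Every window has 4 half-sites, all before the start, with a pair nearest the start in Nr4a1.

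Expression of all 3 NR4A genes was higher in every PTH-treated culture than in every vehicle-treated culture. Nr4a3 rose most, by 7.13 on the log2 scale (140-fold), followed by Nr4a2 with 4.69 (25.8-fold) and Nr4a1 with 4.33 (20.1-fold). In the quasi-likelihood test of edgeR, with p-values adjusted over all 16736 genes after Benjamini and Hochberg, the adjusted p was 5.44e-12 for Nr4a3, 3.04e-10 for Nr4a2 and 1.19e-11 for Nr4a1. Over all tested genes, 23.3% were upregulated and 22.5% downregulated at an adjusted p under 0.05 (45.8% in either direction), and in 21.2% every PTH-treated culture lay above every vehicle-treated culture. Ranked by log2 fold change among all tested genes, Nr4a3 was number 20, Nr4a2 number 87 and Nr4a1 number 113.

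**Figure D2:**
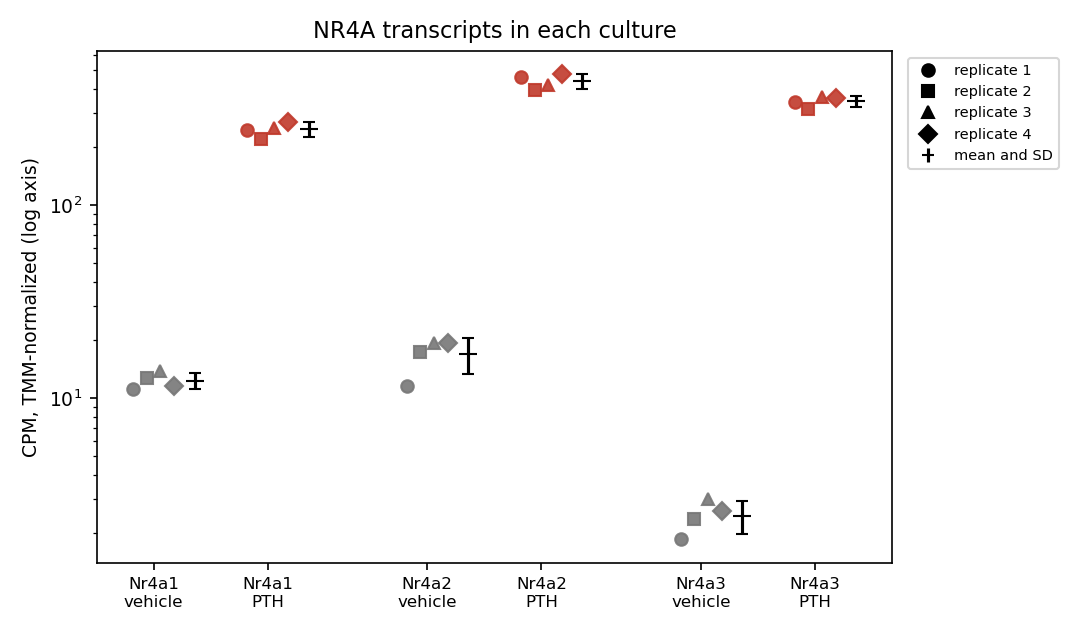
TMM-normalized CPM of Nr4a1, Nr4a2 and Nr4a3 in each of the 8 cultures on a log axis, with a marker shape for each replicate number and the mean and SD of 4 beside each group. The groups are far apart for every gene, and the lowest PTH-treated culture is at least 15.9 times the highest vehicle-treated culture.

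Nr4a1 lies on chromosome 15 from 101254269 to 101274795 on the plus strand (GENCODE M21, GRCm38) and encodes a receptor studied for its parts in apoptosis and in metabolism. With vehicle, its counts were 501, 553, 662 and 571 in replicates 1 to 4, or 11.2, 12.7, 13.8 and 11.5 CPM. With PTH, they were 12605, 7313, 9663 and 11421, or 246, 220, 252 and 271 CPM. The vehicle cultures were close together and the PTH cultures as well, with coefficients of variation of 9.76% and 8.59%, and the lowest PTH culture was 15.9 times the highest vehicle culture. The standard error of the log2 fold change of 4.33 was 0.0964, and with each culture left out in turn the value lay between 4.28 and 4.39.

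Nr4a2, on the minus strand of chromosome 2 from 57106830 to 57124003, encodes the receptor best known for the development and upkeep of dopaminergic neurons. It had 522, 758, 926 and 964 counts in vehicle replicates 1 to 4, or 11.6, 17.4, 19.3 and 19.4 CPM, and 23574, 13098, 16022 and 20097 counts in the PTH replicates, or 460, 394, 418 and 478 CPM. It was the most abundant of the 3 in counts, and vehicle replicate 1 stood below the other 3 vehicle cultures. The coefficient of variation was 21.6% with vehicle and 8.73% with PTH, and edgeR's biological coefficient of variation was 0.138 against 0.0986 for genes of like abundance. The standard error of its log2 fold change of 4.69 was 0.156, the largest of the 3. Without vehicle replicate 1, the log2 fold change was 4.54, the lowest of the fits that each left out 1 culture, and the highest was 4.76.

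Nr4a3, on the plus strand of chromosome 4 from 48045153 to 48086447, encodes the third receptor of the family, which adrenergic signals are known to induce in skeletal muscle. With vehicle, it had 83, 103, 144 and 129 counts in replicates 1 to 4, or 1.85, 2.36, 3.0 and 2.6 CPM. With PTH, it had 17659, 10479, 13859 and 15030 counts, or 344, 315, 362 and 357 CPM. It was thus a transcript of low abundance in every vehicle culture and an abundant one in every PTH culture, and the lowest PTH culture was 105 times the highest vehicle culture. The coefficient of variation was 19.6% with vehicle and 6.07% with PTH, and the log2 fold change of 7.13 (standard error 0.132) lay between 7.01 and 7.24 when each culture was left out.

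The exact permutation test over the 8 cultures on log2(CPM + 0.1) gave a two-sided p of 0.0286 for each of the 3 genes, the smallest that the 70 assignments of 4 and 4 samples allow. PTH replicate 2, the library with the lowest total, had the lowest CPM of the PTH group for all 3 genes, and vehicle replicate 1 had the lowest CPM of the vehicle group for all 3. The part of depth in this order was not tested. The rows of the 3 genes named assembled loci that held no other symbol, and no other annotated gene overlapped them. No stretch of 50 bases in the annotated transcripts of Nr4a1 or Nr4a2 was found in transcripts of another gene, and for Nr4a3 9 of 5986 such stretches were found in 3 other genes.

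The 3 genes did not rise by the same amount. Within each library, the log2 ratio of Nr4a3 to Nr4a1 counts was -2.59, -2.42, -2.20 and -2.14 in vehicle replicates 1 to 4 and 0.49, 0.52, 0.52 and 0.40 in the PTH replicates. Nr4a3 thus had fewer counts than Nr4a1 in every vehicle culture and more in every PTH culture. The ratio rose by 2.82 (standard error 0.107), or 7.04-fold (two-sided exact permutation test, p = 0.0286, adjusted p = 0.0429 over the 3 pairs of genes). The log2 ratio of Nr4a3 to Nr4a2 counts was -2.65, -2.87, -2.68 and -2.90 with vehicle and -0.42, -0.32, -0.21 and -0.42 with PTH. Nr4a2 remained ahead of Nr4a3 in all 8 cultures, but the gap narrowed by 2.43 (standard error 0.0815), or 5.40-fold (exact permutation test, p = 0.0286, adjusted p = 0.0429). For Nr4a2 over Nr4a1, the log2 ratio was 0.06, 0.45, 0.48 and 0.76 with vehicle and 0.90, 0.84, 0.73 and 0.82 with PTH. Its groups overlapped, the difference of 0.38 (standard error 0.148) did not pass the threshold (exact permutation test, p = 0.0571, adjusted p = 0.0571), and the 16 differences between a PTH and a vehicle culture ran from -0.03 to 0.84. These ratios are taken within a library and do not depend on the scaling between libraries.

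To compare levels between genes, CPM was divided by the length of the exons of each gene (3509 bases for Nr4a1, 4059 for Nr4a2 and 5987 for Nr4a3) and scaled to the same sum in every sample, which is the unit TPM. With vehicle, Nr4a2 had 14.3 ± 3.25 TPM and Nr4a1 12 ± 1.24 TPM, with ranges that overlapped, and in replicate 1 Nr4a1 was the higher. Nr4a3 had 1.40 ± 0.285 TPM, below both in every vehicle culture. With PTH, the order was Nr4a2 with 311 ± 37.2 TPM, Nr4a1 with 204 ± 22.0 TPM and Nr4a3 with 166 ± 12.6 TPM, and it was the same in each of the 4 cultures. Of the summed TPM of the family, Nr4a3 took between 4.76% and 5.46% in the vehicle cultures and between 23.4% and 25.7% in the PTH cultures. The share of Nr4a1 was between 38.6% and 50.1% with vehicle and between 29.1% and 30.5% with PTH, while that of Nr4a2 overlapped between the groups, at 45.1% to 56.3% and 43.8% to 47.0%. The PTH cultures thus resembled each other closely in composition, with Nr4a3 as the gene whose share grew. With the length of the longest transcript in place of all exons, Nr4a1 and Nr4a2 changed places with vehicle (13.2 and 13.1 TPM), and the order with PTH was kept. Among 16249 tested genes with a length, Nr4a2 moved from place 7694 in mean TPM with vehicle to place 485 with PTH, Nr4a1 from 8381 to 756 and Nr4a3 from 13490 to 915.

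**Figure D3:**
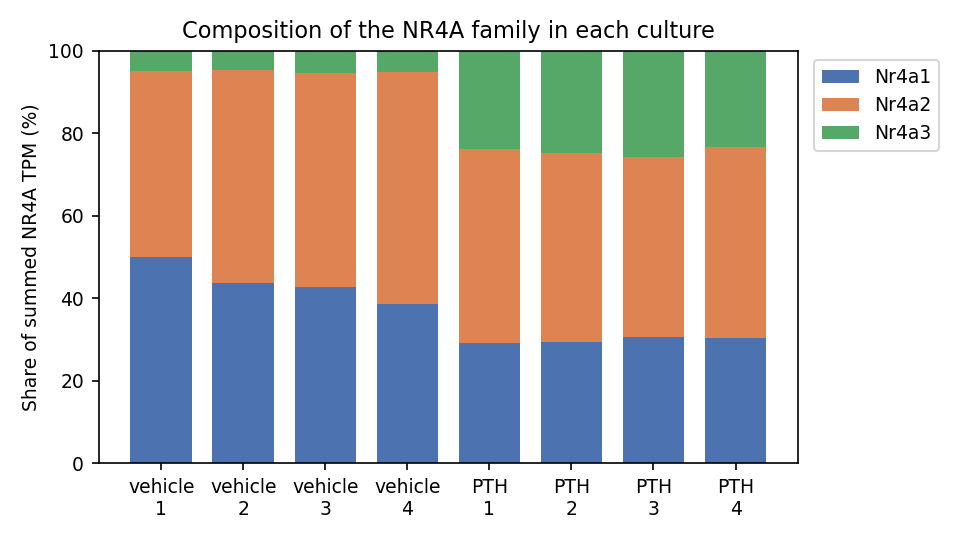
Share of each NR4A gene in the summed TPM of the 3 genes, in percent, for each culture. The share of Nr4a3 is 4.76% to 5.46% in the vehicle cultures and 23.4% to 25.7% in the PTH cultures.

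The family was then set among the 49 listed mouse nuclear receptors, of which 35 could be tested. Without the NR4A genes, 8 of 32 tested receptors were upregulated, 12 were downregulated and 12 did not pass the test, where 23.3% of all tested genes were upregulated and 22.5% downregulated. The median log2 fold change was -0.28 for these 32 and -0.001 for all tested genes. By mean TPM with vehicle, the NR4A genes held places 18 (Nr4a2), 19 (Nr4a1) and 26 (Nr4a3) of 49, far under the thyroid hormone receptor gene Thra (159 ± 11.4 TPM), Rxra (95.9 ± 2.32 TPM) and the retinoic acid receptor gene Rarg (93.3 ± 0.847 TPM). The neighbours of Nr4a2 and Nr4a1 in this order, the vitamin D receptor gene Vdr (14.7 ± 4.07 TPM) and Rora (11.7 ± 0.327 TPM), overlapped them in range. So did Nr4a3 with its own neighbours, the mineralocorticoid receptor gene Nr3c2 (2.06 ± 0.432 TPM) and Ppara (1.15 ± 0.273 TPM). With PTH, the NR4A genes held places 2, 3 and 4, behind Vdr (602 ± 78.2 TPM) and ahead of Thra (111 ± 7.12 TPM). Together they made up between 2.36% and 3.44% of the summed TPM of all listed receptors in the vehicle cultures and between 34.9% and 38.0% in the PTH cultures. Vdr rose by 5.60 on the log2 scale (CPM, adjusted p = 2.71e-10 by edgeR), more than Nr4a1 and Nr4a2 and less than Nr4a3. Other receptors of the list changed less: Rorb rose by 2.68 from at most 0.292 CPM (14 counts), and Ppard, a fatty acid sensor, rose by 1.71, while the clock repressor Nr1d1 (log2 fold change -1.59), the adipogenic factor Pparg (-1.50) and Ppara (-1.11) had the largest decreases among the receptors that passed the test. Nr1h4, the bile acid receptor gene, had a log2 fold change of -1.56 and did not pass it (adjusted p = 0.0666 by edgeR).

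**Figure D4:**
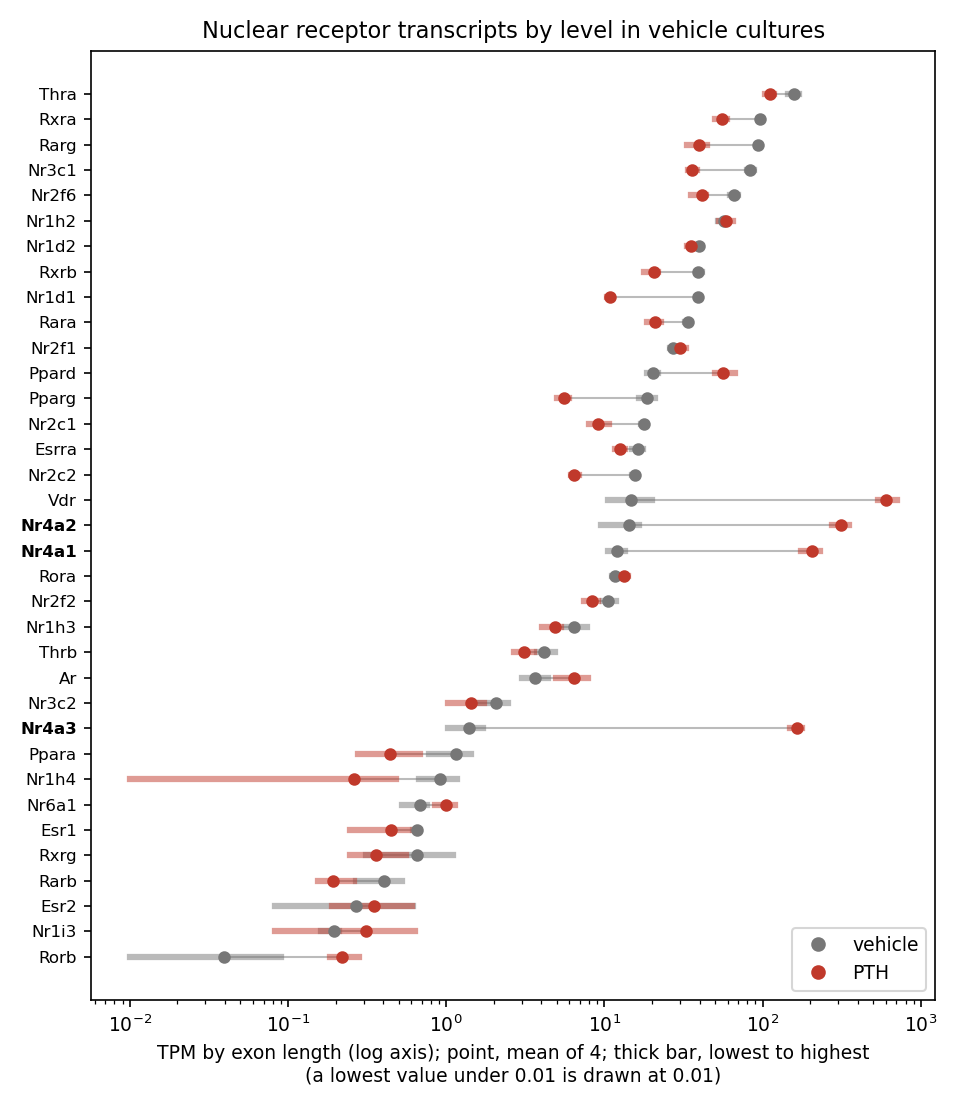
Mean TPM of the 35 tested nuclear receptor genes with vehicle (grey) and PTH (red) on a log axis, ordered by the vehicle level, with thick bars from the lowest to the highest of 4 cultures; NR4A genes are in bold. Nr4a1, Nr4a2, Nr4a3 and Vdr move from the middle or lower part of the order to its top 4 places.

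Of the 14 listed partners and coregulators of NR4A proteins, 2 were upregulated and 7 were downregulated (23.3% and 22.5% of all tested genes), with a median log2 fold change of -0.23. Rxra and Rxrb, the retinoid X receptor genes whose products can pair with Nr4a1 and Nr4a2, fell by 0.55 and 0.68 on the log2 scale (adjusted p = 1.54e-05 and 6.78e-06 by edgeR), from 153 ± 2.95 to 104 ± 5.99 CPM and from 45.6 ± 1.48 to 28.4 ± 1.85 CPM. Rxrg was barely detected, at 0.440 ± 0.230 CPM with vehicle and 0.288 ± 0.101 CPM with PTH (adjusted p = 0.335 by edgeR). The acetyltransferase gene Ep300 rose by 0.24, and Bcl2, whose product binds Nr4a1 at mitochondria, fell by 1.09. For the pair of Rxra and Nr4a2, the vehicle cultures thus had several times more Rxra than Nr4a2 per length (95.9 and 14.3 TPM), and the PTH cultures had less (55.2 and 311 TPM).

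Of 18 listed upstream regulators, 8 were upregulated and 6 were downregulated, in a data set where 23.3% of tested genes rose and 22.5% fell, and their median log2 fold change was 0.06. Crem, which encodes the cAMP-responsive repressor ICER among its products, rose by 4.86, between Nr4a2 and Nr4a3, from 8.12 ± 1.24 to 235 ± 36 CPM. Sik1, a kinase that restrains the CREB coactivators, rose by 3.45, and Hdac4, a deacetylase that represses MEF2 factors, rose by 1.84. Mef2c, which encodes such a factor, had the largest decrease, by 1.84, and the coactivator genes Crtc1 and Crtc3 fell by 0.64 and 0.52. Crem and Sik1 are themselves immediate early genes and were counted in that list too.

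Of the 34 listed immediate early genes other than the NR4A genes, 26 were upregulated, 4 were downregulated and 4 did not pass the test, beside 23.3% up and 22.5% down over all tested genes. The median log2 fold change of the list was 1.39, where that of all tested genes was -0.001. Within this list, only Gem, a small GTPase gene (log2 fold change 6.29, standard error 0.147), Crem (4.86) and Maff (4.73) had a larger log2 fold change than Nr4a2, and none had a larger one than Nr4a3. Egr3 and Srf, transcription factor genes induced by growth factors, and Arc, known from active synapses, were downregulated, with log2 fold changes of -1.28, -1.14 and -2.28. The changes of the NR4A genes were therefore in the upper part of this list and were not shared by all of it at 24 hours.

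**Figure D5:**
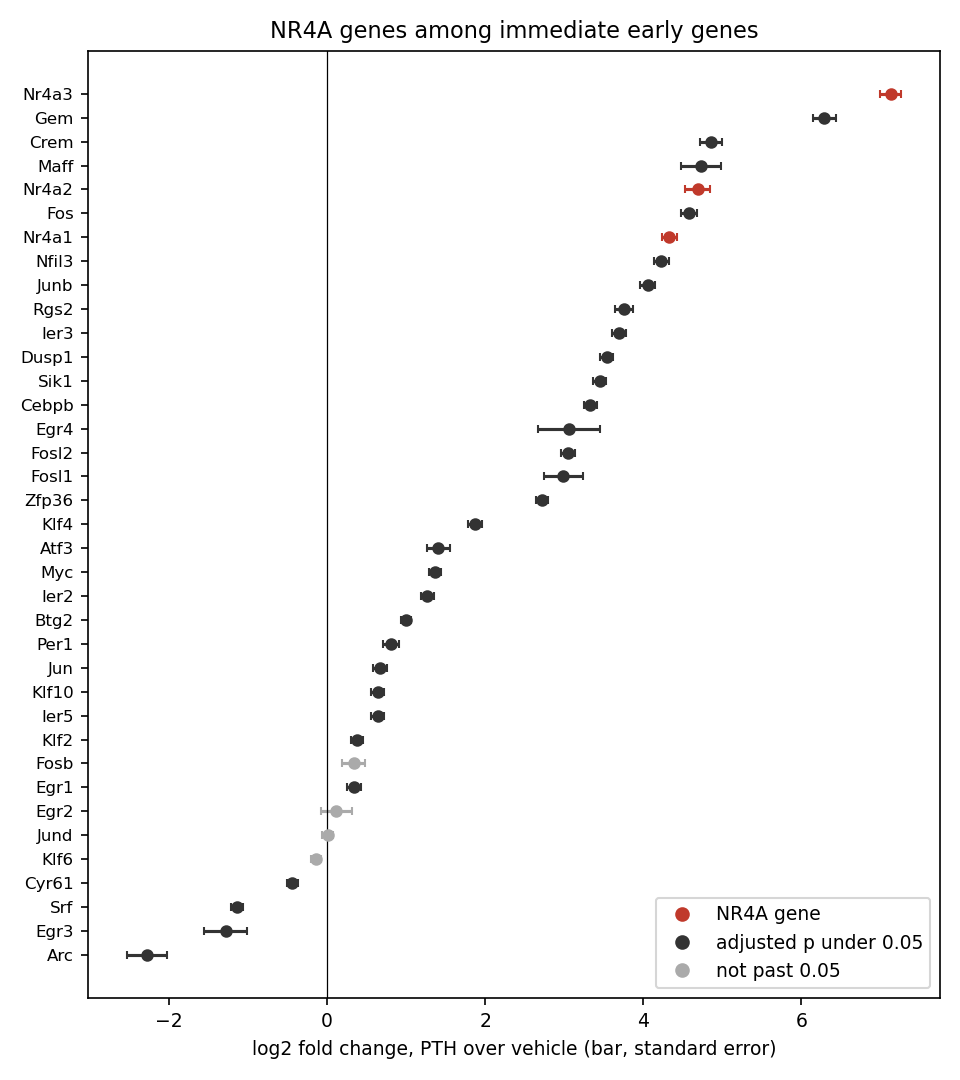
Log2 fold change of PTH over vehicle, with its standard error, for the 3 NR4A genes (red) and 34 other immediate early genes (black past an adjusted p of 0.05, grey not). Nr4a3 has the largest value (7.13), and Nr4a2 (4.69) and Nr4a1 (4.33) lie among the 7 largest.

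The number of CRE half-sites in a promoter window was set beside the calls for the 11296 tested genes with a window. For a gene with several windows, the highest number in any of them was taken. Such genes had more chances of a high number, and the part of this was not tested. Over all 11296 genes, 23.4% were upregulated and 24.8% downregulated. Of 7463 genes with no half-site, 20.0% were upregulated, and the share was 26.5% with 1, 36.4% with 2 and 43.8% with 3 half-sites. Of the 59 genes other than the NR4A genes with 4 or more, 31 (52.5%) were upregulated and 7 (11.9%) were downregulated, with a median log2 fold change of 0.23. The median GC content of the windows moved with the number of half-sites, from 61.0% to 64.7%, and its part was not tested. Whether the half-sites themselves have a part in these calls was not tested either. The log2 fold changes of the NR4A genes were far above that median of 0.23.

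Of 22 listed genes reported as targets of NR4A proteins in bone and other tissues, 11 could be tested, and edgeR called 3 up and 0 down, where 23.3% of all tested genes were called up and 22.5% down. The tallies before adjustment (p under 0.05) were 3 up and 0 down, and DESeq2 called 4 up and 0 down. Spp1 (osteopontin) and Bglap (osteocalcin), which are reported targets of Nr4a2 in osteoblasts, had 515 ± 129 and 252 ± 81.6 CPM with vehicle and 421 ± 49.6 and 259 ± 48.4 CPM with PTH, and did not pass the test (log2 fold changes -0.29 and 0.04, adjusted p = 0.129 and 0.874 by edgeR). Bglap2, a near-identical copy of Bglap whose reads cannot be separated with certainty, had a log2 fold change of -0.10. The upregulated genes were Ret, a receptor kinase gene (log2 fold change 3.16, from 1.14 ± 0.239 to 10.2 ± 0.919 CPM), Star, for cholesterol transport into mitochondria (1.95, from 0.971 ± 0.453 to 3.77 ± 0.635 CPM), and Ucp1, for uncoupling of respiration (1.88, from 0.283 ± 0.141 to 1.05 ± 0.171 CPM), all of them low in these cells.

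The genes most like each member in pattern were those whose log2 CPM, centred on the vehicle mean, had the smallest root mean square difference from the member over the 8 cultures, among 14072 tested genes whose mean reached 1 CPM. For Nr4a1 these were Lif, a cytokine of the IL-6 family (0.11), the cAMP phosphodiesterase gene Pde4d (0.14) and Nfil3, a transcription factor gene (0.14). For Nr4a2 they were Aldh1a3, for retinoic acid synthesis (0.16), the deubiquitinase gene Usp2 (0.17) and the tubulin gene Tuba4a (0.18). These values lay under the distance between Nr4a1 and Nr4a2 (0.33). For Nr4a3 the closest were Kcnk10 (0.31), Epn3 (0.50) and Tacr1 (0.53), and the distances of Nr4a3 to Nr4a2 and Nr4a1 were 1.71 and 1.98. Kcnk10 and Tacr1 had 0 counts in every vehicle culture, and their closeness to Nr4a3 depends on the prior count of 2 used in log2 CPM, whereas Epn3 rose from 0.805 ± 0.254 to 95.0 ± 6.74 CPM. As the groups lay far apart, these distances measure mainly a like size of change. Lif, Pde4d and Nfil3 had log2 fold changes of 4.35, 4.28 and 4.23, beside 4.33 for Nr4a1. Joint variation between cultures of a group was not tested.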

How the data were processed

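RNA of 8 primary calvarial osteoblast cultures, 4 treated with PTH and 4 with vehicle, was sequenced from poly(A)-enriched libraries. Per the methods of the study, HISAT2 was used for alignment to GRCm38 and StringTie2 for assembly of transcripts. The deposited table holds whole-number counts per gene, which the companion script of StringTie2 derives from transcript coverage, with no scaling between samples. The annotation version, strand setting and read length setting are not given in the sources used here. The labels also name DESeq2.

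Columns were assigned by sample title. The effect of PTH was tested with edgeR 4.0.16 in R 4.3.3, by the quasi-likelihood F-test after TMM normalization and filterByExpr (min.count 10, min.total.count 15), with Benjamini-Hochberg adjustment over the 16736 genes that passed, and genes with an adjusted p under 0.05 were called, with no minimum fold change, after the study. Standard errors were taken from the log2 fold change and its F. DESeq2 1.42.0 was an alternative. Ratios between members used counts plus 0.5 and an exact permutation test. TPM has a fixed sum per sample, so it was used for the order of genes and not for the effect of PTH. Exon lengths and positions are from GENCODE M21, promoters from RefSeq (all 3 members matched). In all, 46650 of the 47706 rows were matched to GENCODE M21, with 97.4% of the counts. Python 3.11.15 (pandas 2.3.3, NumPy 2.4.6, matplotlib 3.10.9) served for tables and plots. Both count models were also run on counts simulated from the levels and dispersions fitted here, with changes set in a small part of the genes. The outcome is not reported here.

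The members and gene lists were chosen with earlier results of these data known. The rule for naming genes took the 3 members, Tnfsf11, the 3 largest rises and falls of each list, the retinoid X receptors, Spp1, Bglap and Bglap2, neighbours in the order of nuclear receptors and the 3 genes most alike in pattern; Lyz2, Cd14, Runx2, Sp7, Dmp1, Nr2e1 and other genes that a count of 5 or fewer or a sentence singles out were named after their values were seen. The values of 1 gene that the rule takes are not reported here. Alternatives tried were edgeR with upper-quartile normalization or with the size factors of DESeq2, DESeq2 itself, no filter on low counts, the replicate number as a block, leaving out each culture, halved counts, counts summed by symbol, other pseudocounts and a minimum log2 fold change of 1. The length of the longest transcript was added after the data were seen.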

Additional observations from a re-analysis of the deposited data

Results flagged for a closer look

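No NR4A gene and no ratio between them had a culture far from the rest of its group by Dixon's criterion. Over the 80 groups of 4 values examined, those of the NR4A genes included, 1 culture stood apart from the other 3 in 4 groups, all of other named genes, and chance gives this in about 1 of 20 groups. Tnfsf11 had 157 CPM in PTH replicate 1 and 115 to 120 CPM in the others (gap over range 0.881). Crtc1 had 40.1 CPM in vehicle replicate 3 and at most 35 CPM in the others (0.837), and Rxrb had 25.6 CPM in PTH replicate 3 and at least 29.0 CPM in the others (0.867). Bglap2 had 383 CPM in vehicle replicate 4 and at most 236 CPM in the others (0.869).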

How the results depend on the processing

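Under DESeq2, both other normalizations, no filter, the replicate block, halved counts, counts summed by symbol and each culture left out, the 3 NR4A genes stayed upregulated, with log2 fold changes of 4.22 to 4.39 for Nr4a1, 4.54 to 4.76 for Nr4a2 and 7.01 to 7.24 for Nr4a3. With upper-quartile normalization, the median log2 fold change of all tested genes was -0.114, where it was -0.001 with TMM. It gave 3054 upregulated and 5216 downregulated genes, against 3907 and 3762 with TMM. With each culture left out, the change of the log2 ratio lay between 2.73 and 2.88 for Nr4a3 over Nr4a1, 2.39 and 2.48 for Nr4a3 over Nr4a2 and 0.26 and 0.49 for Nr4a2 over Nr4a1, values with no test since 4 against 3 cultures cannot give a p under 0.0571.

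Samples of the same replicate number share only that number: the correlation of their deviations lay between -0.0409 and 0.0274. With the replicate block, 3571 genes were upregulated and 3432 downregulated, no NR4A gene lost its call, and the differences of ratios were 2.82 for Nr4a3 over Nr4a1 and 2.43 for Nr4a3 over Nr4a2 (exact sign-flip permutation, p = 0.125, the smallest that 4 pairs allow).

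A minimum log2 fold change of 1 left 7 nuclear receptors up and 5 down, 5 upstream regulators up and 1 down, and 1 partner up and 1 down. The share of all tested genes past this minimum was not computed, so these counts have no background beside them. Upper-quartile normalization left 1 partner up and 1 reported target down. No filter gave 5 reported targets up, where 3509 of the 26477 genes then tested were upregulated. The cause of these shifts was not tested. With the longest transcript as length, Nr4a1 had 13.2 TPM with vehicle and 227 with PTH, Nr4a3 had 141 with PTH, and Nr4a3 was number 5 among nuclear receptors with PTH in place of number 4.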
